A study of Mus musculus with 12 samples.

Results

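The sites described here were partly methylated in colonic adenomas of mice and differed most between adenomas of 1 genotype. They are 1287 of the 173449 CCCGGG sites measured, chosen by their own values. Autosomal sites with 100 or more reads in 11 of 12 adenomas numbered 16868, and 3162 of these had a mean level of 20% to below 80% in the 3 control adenomas. Of these intermediate sites, 1287 (40.7%) had a pooled within-genotype standard deviation (SD) of 10 percentage points or more and are called members below. This SD is the square root of the summed squared deviations of each adenoma from the mean of its genotype, divided by 7 degrees of freedom.

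Methylation was read by digital restriction enzyme analysis (DREAM). DNA was cut first with SmaI, which opens unmethylated CCCGGG, and then with XmaI, which opens the methylated sites left, so that the ends of a read tell the state of the site. A level is the percentage of methylated reads at a site, adjusted by the authors on spiked methylation standards.

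The adenomas came from C57BL/6J mice, 150 to 160 days old, that all carried the ApcMin/+ allele. Controls had wild-type alleles of Tet1 and Tdg. Tet1 null adenomas were Tet1-/- with wild-type Tdg, Tdg heterozygous adenomas were TdgN151A/+ with wild-type Tet1, and double heterozygous adenomas were Tet1+/- with TdgN151A/+. Each genotype had 3 adenomas. Whether these were taken from different mice is not in the labels, and a p-value then covers only the spread among the adenomas, which may be technical. The shallow double heterozygous adenoma 3, with 2349576 reads, took no part in the choice of sites. The other 11 had 8213211 to 18865833 reads.

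In mammals, methylation sits mostly on cytosines of CpG pairs, where Dnmt enzymes set and copy it, and most CpGs are either nearly free of it or nearly full. A level in between in a piece of tissue means that only some of the DNA copies carry the mark, which can differ between cells and between alleles. Tet1 oxidises 5-methylcytosine, and Tdg is the glycosylase that cuts out the oxidised base. N151A is a mutation of its catalytic site. Adenomas form in these mice when cells lose the remaining working copy of Apc, a tumour suppressor. Each level is a share of the DNA copies in a dissected adenoma, so a different share of cell types and a different level inside a cell type cannot be told apart. The tissue was taken from the labels, since methylation counts hold no expression markers against which to check it.

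The members had a median SD of 12.4 points (interquartile range 11.2 to 14.5) and reached 26.9 points. Counting error at their depth, with a median of 699 reads, would give a median SD of 1.83 points and at most 3.94 points. The threshold lies above this by choice, so no more than the size is read from it, and reads copied in amplification are not independent molecules. The other intermediate sites were 1568 with an SD of 5 to below 10 points and 307 with an SD below 5 points, at median depths of 669.5 and 701 reads. The median level in control was 51.0% for members, 59.2% for the middle class and 71.7% for the class below 5 points.

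**Figure D1:**
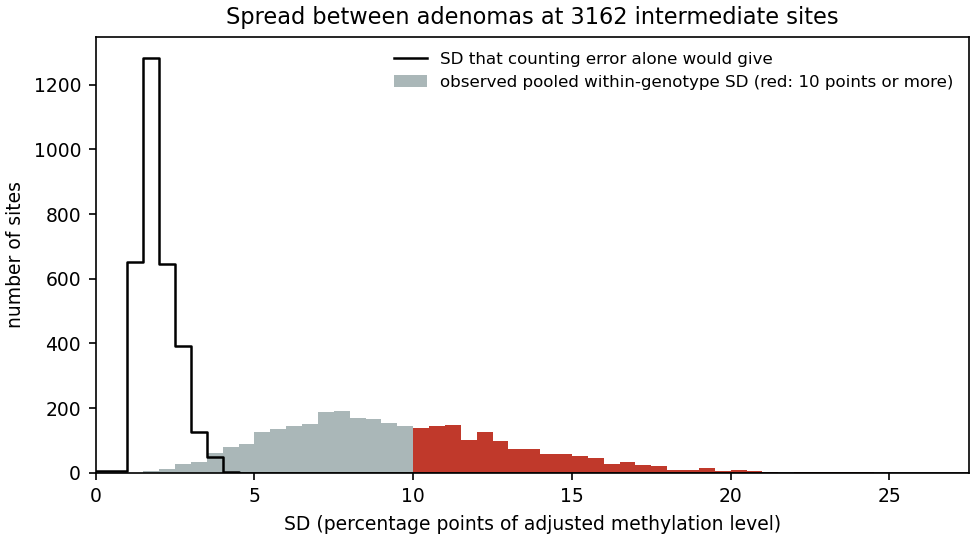
Number of intermediate sites (y axis) by pooled within-genotype SD in percentage points (x axis); bars are observed values, red from 10 points up, and the black line is the SD that counting error alone would give. The observed SD of the 1287 red sites had a median of 12.4 points, against a median of 1.83 points from counting.

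The threshold of 10 points cut through a continuous range. Just inside it lay position 163858272 on chromosome 2 (10.003 points) and position 89617393 on chromosome 1 (also 10.003 points). Just outside lay position 146781348 on chromosome 4 (9.999 points) and position 21157434 on chromosome 9 (9.99 points). By control level, the members nearest to the limits were position 79882306 on chromosome 10 (20.1%) and position 75544116 on chromosome 15 (20.1%) at the lower limit. At the upper limit they were position 144126923 on chromosome 7 (79.8%) and position 14447278 on chromosome 16 (79.7%). Variable sites just beyond these limits were position 32099137 on chromosome 14 and position 53777248 on chromosome 13 (19.97 and 19.95%), and position 128119775 on chromosome 5 and position 64044807 on chromosome 15 (80.1% each). All positions are of the mm9 build. No annotation of that build was at hand, so sites were not assigned to genes.

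All 4 genotypes contributed to the spread. The median SD inside a genotype was 9.35 points for control, 12.4 points for Tet1 null, 11.5 points for Tdg heterozygous and 12.5 points for the 2 double heterozygous adenomas used. An SD of 10 points or more was found in 1 genotype alone at 218 members, in 2 genotypes at 567, in 3 at 422 and in all 4 at 80. The largest range inside a genotype had a median of 33.1 points, and it was 50 points or more at 80 members. Most members thus had an SD of 10 points or more in 2 or more genotypes. These SDs were pooled in the choice of members, so such counts follow in part from the choice. The SD of the double heterozygous adenomas rests on 1 degree of freedom.

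The 10 members with the largest SD are given one by one, first in the 11 adenomas used in the choice. The largest SD, 26.9 points, was at position 109671105 on chromosome 8. Its level was 26.3, 39.6 and 38.4% in control adenomas 1 to 3. The Tet1 null adenomas were at 27.1, 86.4 and 38.6%, and the Tdg heterozygous ones at 26.9, 18.5 and 74.3%. It was 77.2 and 29.2% in double heterozygous adenomas 1 and 2. Tet1 null 2, Tdg heterozygous 3 and double heterozygous 1 stood at 74.3 to 86.4%, and the remaining 8 adenomas at 18.5 to 39.6%.

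A similar split was seen at position 117522367 on chromosome 4 (SD 24.7 points). There the controls were at 28.7, 60.1 and 62.8% and Tet1 null adenomas at 41.9, 93.7 and 70.3%. Tdg heterozygous adenomas were at 45.3, 43.3 and 85.3%, and double heterozygous ones at 89.4 and 43.2%. The same 3 adenomas were the highest. They were also the highest of the 11 at position 124830450 on chromosome 8, with Tet1 null 2 at 79.4%, Tdg heterozygous 3 at 60.8% and double heterozygous 1 at 74.8%, against 17.4 to 41.4% in the other 8. At position 110065032 on chromosome 12 they were at 83.7, 59.3 and 68.2%, against 18.4 to 40.1% in the other 8. Position 124829972, less than 500 bp away from position 124830450 on chromosome 8, had the same 3 of the 11 adenomas on top, at 85.6, 76.8 and 82.2%, but control 2 reached 70.0%. At position 97565750 on chromosome 3, Tet1 null 3 joined the high adenomas. Controls there were at 35.6, 50.1 and 49.5%, and Tet1 null adenomas at 24.6, 95.8 and 81.0%. Tdg heterozygous adenomas were at 57.2, 51.3 and 78.7%, and double heterozygous ones at 87.5 and 49.8%.

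Double heterozygous 3 was read only 50 to 143 times at these 6 sites. It was at 58.1% at position 109671105 and 41.4% at position 110065032, between adenomas 1 and 2. It was also between them at position 117522367 (77.5%), position 97565750 (64.2%) and position 124830450 (63.3%), at the last of which it lay above Tdg heterozygous 3. At position 124829972 it was at 84.3%, above both.

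The other 4 of these 10 sites did not follow that split. Position 42543913 on chromosome 19 was at 83.9 to 90.4% in 8 adenomas, at 74.7% in double heterozygous 1, at 50.9% in Tet1 null 1 and at 21.9% in control 1. Low values thus occurred in single adenomas of different genotypes. At position 124281042 on chromosome 8, controls 1 and 3 were at 49.98 and 43.8% and Tdg heterozygous 2 at 24.3%, while the other 8 adenomas were at 79.0 to 91.8%. Position 125389045 on chromosome 8 was at 75.2, 36.5 and 40.1% in the controls and 24.1, 65.7 and 72.7% in Tet1 null adenomas. Tdg heterozygous adenomas were at 72.1, 49.9 and 33.4%, and double heterozygous ones at 87.0 and 39.1%, so adenoma 1 of the Tdg heterozygous and control groups was high here. Position 120474005 on chromosome 5, read only 108 to 239 times per adenoma, was at 75.35, 20.15 and 9.98% in control and 69.3, 39.98 and 60.9% in Tet1 null adenomas. It was at 43.96, 14.7 and 20.5% in Tdg heterozygous and 37.6 and 65.8% in double heterozygous adenomas, so here double heterozygous 1 was the lower of its pair. The widest range among controls was at position 14766131 on chromosome 14, with 79.5, 11.2 and 53.2%, followed by positions 42543913 and 120474005.

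**Figure D2:**
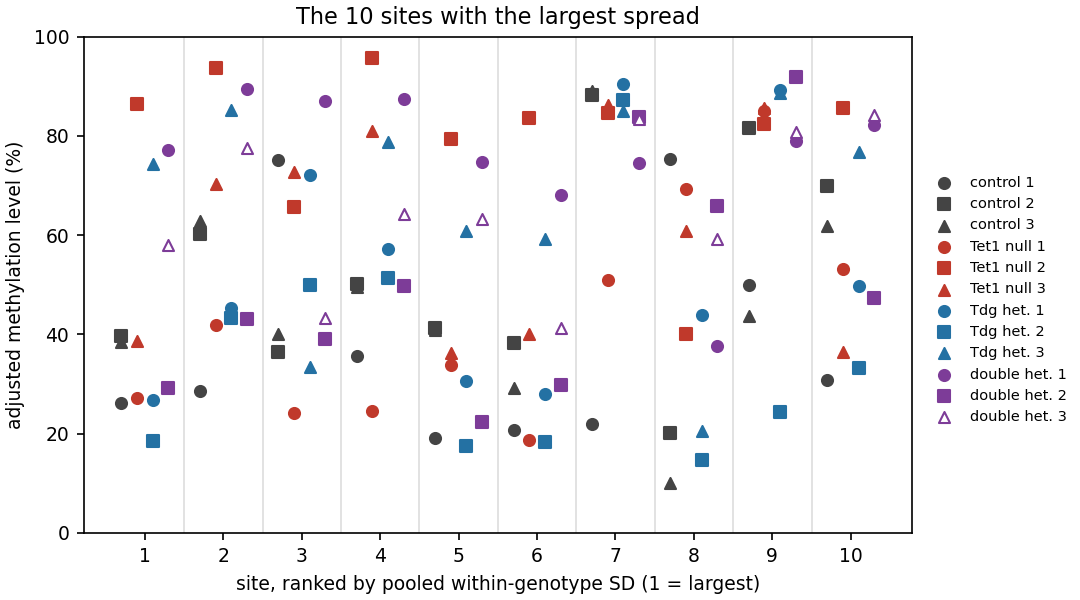
Adjusted methylation level (y axis, %) in each of 12 adenomas at the 10 members with the largest pooled SD (x axis, rank 1 at 26.9 points); colours are genotypes, marker shapes adenoma numbers, and the open triangle is double heterozygous 3, which the choice of sites did not use. At ranks 1, 2, 5, 6 and 10, Tet1 null 2, Tdg heterozygous 3 and double heterozygous 1 were the highest of the 11 adenomas used in the choice.

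Over all 1287 members, Tet1 null 2, Tdg heterozygous 3 and double heterozygous 1 had the highest mean of their genotypes. Tet1 null 3 lay above Tdg heterozygous 3. The mean level was 50.4, 48.7 and 51.0% in control adenomas 1 to 3, a range of 2.36 points. Tet1 null adenomas were at 50.1, 64.9 and 58.7%. Tdg heterozygous adenomas were at 51.3, 50.2 and 55.7%, and double heterozygous adenomas 1 and 2 at 60.8 and 51.7%. Tet1 null 1 and Tdg heterozygous 2 thus lay inside the range of the controls, and Tet1 null 2 and double heterozygous 1 about 10 points or more above it. A level above 80% was reached by 257 members in Tet1 null 2 and 201 in double heterozygous 1, against 118 in Tet1 null 1 and 50 to 103 in the controls. A level below 20% was found at 18 members in Tet1 null 2 and 16 in Tet1 null 3, against 114 in Tet1 null 1 and 146 in Tdg heterozygous 2.

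The means hide the direction at single sites, so adenomas were also ranked inside their genotype. Tet1 null 2 was the highest of its genotype at 777 members (60.4%) and Tet1 null 1 the lowest at 830 (64.5%). Tdg heterozygous 3 was the highest at 605 (47.01%), and double heterozygous 1 exceeded adenoma 2 at 910 (70.7%). Among the controls the highest was adenoma 1 at 515 members, adenoma 3 at 470 and adenoma 2 at 302. The class with an SD below 5 points gave 58.6% for Tet1 null 2 and 60.6% for double heterozygous 1, but 33.9% for Tdg heterozygous 3. The order of the first pair was therefore also present where the spread was small.

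**Figure D3:**
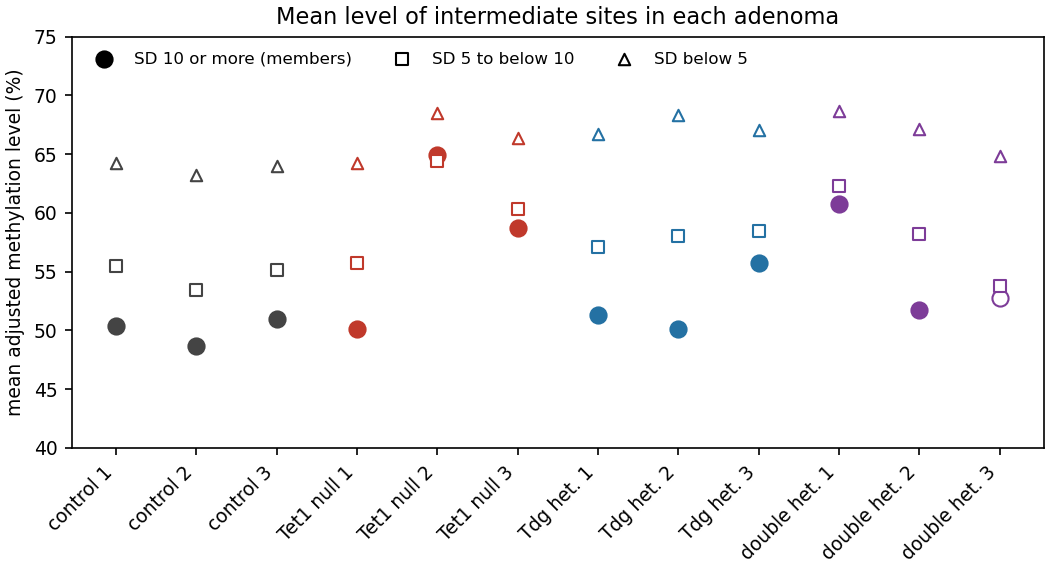
Mean adjusted methylation level (y axis, %) of intermediate sites in each adenoma (x axis): filled circles are the 1287 members, squares the 1568 sites with an SD of 5 to below 10 points and triangles the 307 sites with an SD below 5 points; the last column, with an open circle, holds the sites of each class with 100 or more reads in double heterozygous 3. Members ranged from 48.7 to 64.9% over the 11 adenomas used, and the controls from 48.7 to 51.0%.

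A principal component analysis of the deviations from the genotype means summarised what members shared. The first component held 39.4% of the within-genotype variance of members, against 33.6% in the middle class and 28.8% in the class below 5 points, and the next 2 components of members held 15.1 and 14.4%. The size of these same deviations had chosen the classes. The median counting SD was 1.83 points beside an SD of 12.4 points in members, and 1.72 beside 4.12 points in the class below 5 points. Nothing is therefore read from the order of the shares. The weights of the first component of members were 0.46 for Tet1 null 2, 0.39 for double heterozygous 1 and 0.36 for Tdg heterozygous 3. They were -0.49 for Tet1 null 1, -0.39 for double heterozygous 2 and -0.24 for Tdg heterozygous 2. The controls had weights of -0.14, 0.05 and 0.09. Of the members, 981 (76.2%) scored in this direction and 306 in the opposite one. The 2 double heterozygous deviations mirror each other by construction.

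**Figure D4:**
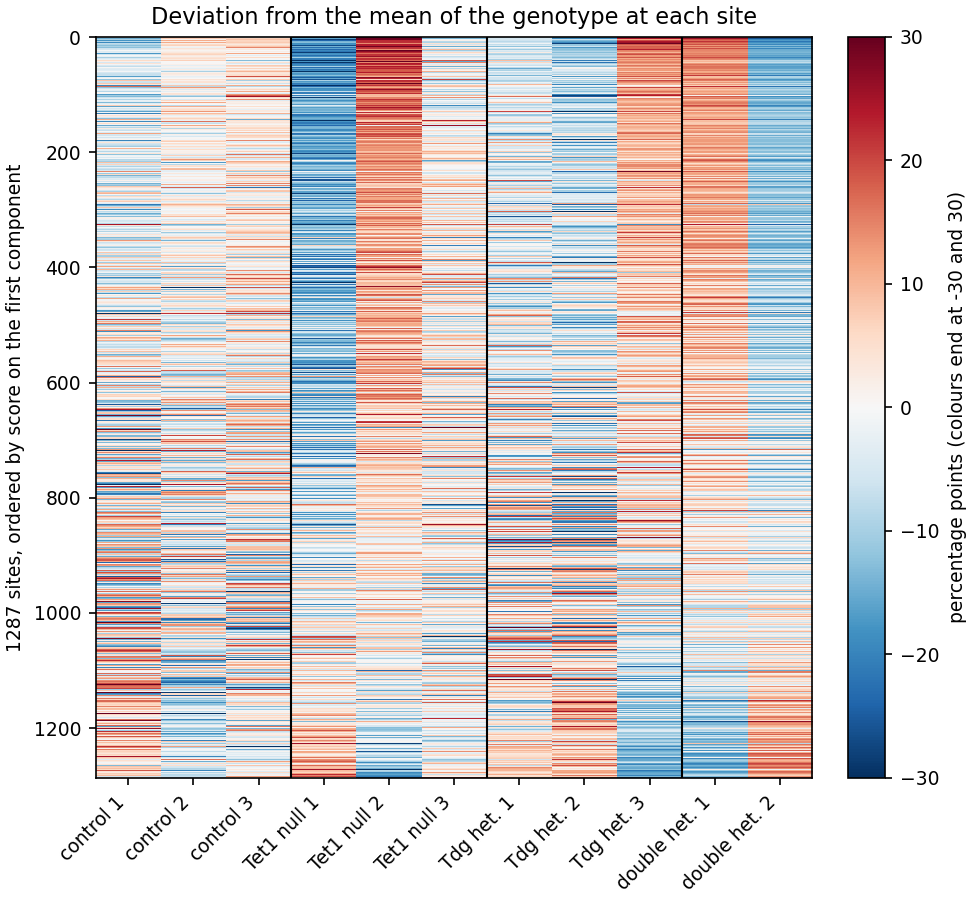
Deviation of each adenoma (columns, 11 adenomas) from the mean of its genotype in percentage points (colour, red above and blue below) at the 1287 members (rows, ordered by their score on the first component). The upper 981 rows score above 0, with Tet1 null 2, Tdg heterozygous 3 and double heterozygous 1 mostly red; the lowest rows show the opposite colours.

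Median differences between adenomas at either end of the component were largest at members with a low level in control. The component itself was not computed by control level, and a signed median is small where sites go both ways. At control levels of 20 to 35% (300 members), Tet1 null 2 exceeded Tet1 null 1 by a median of 24.2 points, double heterozygous 1 exceeded 2 by 20.5 points and Tdg heterozygous 3 exceeded 2 by 12.9 points. At 65 to 80% (278 members) the same differences were 4.89, 2.94 and -1.68 points. Mean levels at the 300 low members were 26.7 to 28.9% in the controls and 28.8% in Tet1 null 1, but 48.6% in Tet1 null 2, 43.4% in double heterozygous 1 and 36.7% in Tdg heterozygous 3. A level near 80% leaves less room for a rise, and how far that limit sets the smaller differences was not tested.

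Differences between adenomas of 1 genotype were then set against those of another genotype, which share no adenoma. The pairs were chosen after their values were seen. Over the 1287 members, Tet1 null 2 minus 1 correlated with double heterozygous 1 minus 2 at Pearson's r = 0.43 (Spearman's rho = 0.40) and with Tdg heterozygous 3 minus 2 at r = 0.33 (rho = 0.31). The last of these correlated with the double heterozygous difference at r = 0.39 (rho = 0.35). These are descriptions across sites, which share libraries and are not independent. In the class below 5 points the same 3 values of r were 0.18, 0.32 and 0.20. At members, r with the 3 differences lay between 0.13 and 0.17 for control 3 minus 1 and between 0.18 and 0.19 for control 2 minus 1.

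All 3 differences were above 0 at 598 members (46.5%) and below 0 at 134 (10.4%). All were 20 points or more at 75 members and -20 points or less at 11. A smaller set of members was therefore lower in Tet1 null 2, double heterozygous 1 and Tdg heterozygous 3 than in the adenomas they were set against.

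**Figure D5:**
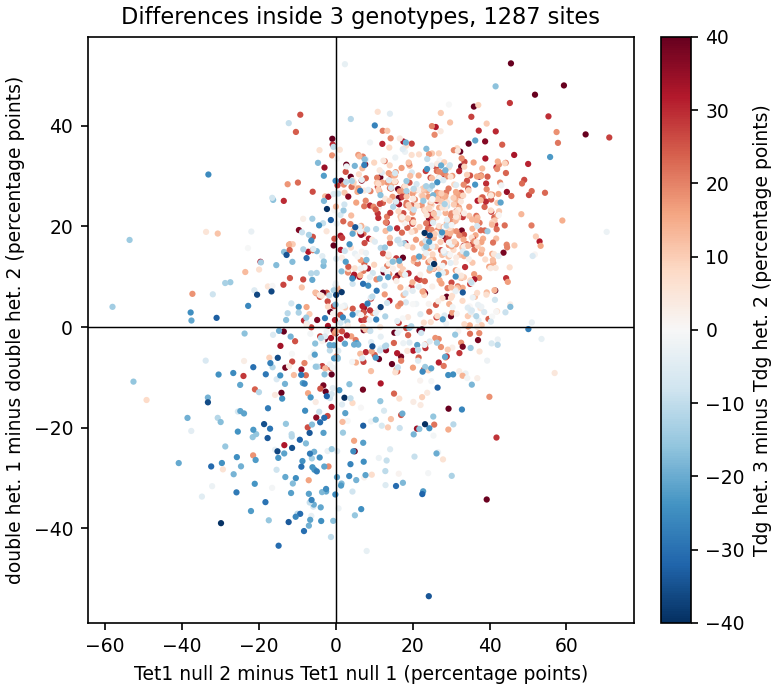
Tet1 null 2 minus Tet1 null 1 (x axis) against double heterozygous 1 minus double heterozygous 2 (y axis), in percentage points, at 1287 members, coloured by Tdg heterozygous 3 minus Tdg heterozygous 2. All 3 differences were above 0 at 598 sites (red points in the upper right), and r between the axes was 0.43.

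Double heterozygous adenoma 3 gave values that the choice of sites had not used. At 554 members it had 100 or more reads (median 125), with a median counting SD of 4.15 points. Its mean level there was 52.8%, between 60.2% in adenoma 1 and 49.7% in adenoma 2. It lay outside the range of adenomas 1 and 2 at 220 of the 554 members (39.7%), with 149 below and 71 above. The share outside was 57.9% in the middle class and 68.0% in the class below 5 points. Adenoma 1 exceeded it at 417 members (75.3%), by a median of 9.12 points. Over these members, adenoma 1 minus adenoma 3 correlated with Tet1 null 2 minus 1 at r = 0.35 and with Tdg heterozygous 3 minus 2 at r = 0.34. Adenoma 1 enters this difference as it does that from adenoma 2, so they are not independent.

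A gap of 20 points or more from the mean of adenomas 1 and 2 was found at 23 of 554 members (4.15%). The share was 1.61% of 623 sites in the middle class and 0.781% of 128 sites in the class below 5 points. Adenomas 1 and 2 had entered the SD that chose these classes, so the shares are given without a test. The largest gap was -44.8 points at position 14766131 on chromosome 14, where adenoma 3 was at 18.9% (108 reads) and adenomas 1 and 2 at 58.5 and 68.8%. Position 94520816 on chromosome 8 followed with 61.7% against 45.8 and 20.5%, and position 86206020 on chromosome 17 with 50.7% against 75.8 and 80.9%.

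Neighbouring sites were a further measure that the choice did not use. Fragments between nearby CCCGGG sites are what is sequenced, and 8 of the 1287 members had no other measured site within 500 bp. At 494 members, a site within 500 bp had been left out for its depth or its control level but had 50 or more reads in each of the 11 adenomas. Of the 525 such pairs, 417 (79.4%) had deviations that correlated above 0 over the 11 adenomas, with a median r of 0.42. For the middle class the share was 72.0% of 718 pairs, and for the class below 5 points 67.6% of 148. These neighbours lay below 20% in 255 pairs and at 80% or above in 250, and their own median SD was 4.998 points. A member could thus stand 500 bp or less from a site below 20% or at 80% or above and still have deviations that correlated with it above 0. Pairs of distant sites were not measured, so the part of nearness in these shares was not tested. Both ends of 1 fragment can enter a pair, so the values of a pair are not independent.

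Members also stood beside each other. They fell in 1065 runs of measured sites no more than 500 bp apart, of which 217 held 2 or more members and 5 held 3. Of 220 pairs of members within 500 bp, 181 (82.3%) correlated above 0 and 121 (55.0%) above 0.5, with a median r of 0.58. The run with the most members and the largest summed SD spans positions 125388762 to 125389276 on chromosome 8 and holds 3 members. Its first site was at 28.5, 17.5 and 21.5% in the controls and at 3.58, 59.3 and 31.2% in Tet1 null adenomas. Its last site was at 82.9, 47.1 and 45.6% in the controls and at 43.8, 57.2 and 77.8% in Tet1 null adenomas. Double heterozygous 1 and 2 were at 57.2 and 23.4% at the first and at 86.5 and 47.5% at the last site. The control mean rose along the run from 22.5 through 50.6 to 58.6%, and Tet1 null 1 was the lowest of its genotype at all 3 sites.

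Of the 5 runs with 3 members, the next by summed SD spans positions 151885155 to 151885691 on chromosome 4. Tdg heterozygous 2 was the lowest of its genotype at each of them, at 35, 31.9 and 21.8%, where the other Tdg heterozygous adenomas were at 45.9 to 71.9%. Double heterozygous 1 exceeded adenoma 2 at each, with 68.7, 71.0 and 61.5% against 50.6, 53.4 and 22.7%. The controls had no common order there, with adenoma 3 the highest at the first site (84.6%) and the lowest at the others (50.2 and 33.2%).

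Sites outside the members showed where the order of adenomas reached. At 1237 sites with a control level of 5 to 20%, the mean was 10.8 to 11.8% in the controls, 20.3% in Tet1 null 2, 19.7% in double heterozygous 1, 18.04% in Tet1 null 3 and 15.2% in Tdg heterozygous 3. Tet1 null 1 was at 13.6%, and Tdg heterozygous 1 and 2 and double heterozygous 2 at 10.1 to 11.03%. At 2028 sites of 80% or above, all 11 adenomas lay between 89.2 and 91.7%. At 10441 sites below 5%, the 3 Tet1 null adenomas were at 0.651 to 0.834%, and the other 8 at 0.337 to 0.487%, so Tdg heterozygous 3 (0.415%) did not stand apart there.

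A second kind of member deviated in 1 adenoma alone. At 48 members (3.73%), 1 adenoma lay 30 points or more from the median of the other 10 while these all lay within 15 points of it. The adenoma was lower at 42 of these sites and higher at 6. The middle class had 10 such sites among 1568 and the class below 5 points 0 among 307, and a large single deviation itself raises the SD. The lower adenoma was a control at 20 sites, a Tdg heterozygous adenoma at 15, a double heterozygous one at 4 and a Tet1 null one at 3. Controls at a low level also pull the control mean below 80%, so the choice of sites favours losses in a control.

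Examples of such sites were chosen after their values were seen. Position 60946122 on chromosome 9 was at 24.98% in Tdg heterozygous 2 and at 63.8 to 86.6% in the other 10 adenomas. Position 105536660 on chromosome 2 was at 47.4% in control 3 and at 87.5 to 97.2% elsewhere. Position 118351255 on chromosome 5 went the other way, with 58.1% in control 1 and 4.91 to 28.1% elsewhere. The adenomas in these examples are not those with the highest weights on the shared component, but Tdg heterozygous 2 had a weight of -0.24 on it. Tet1 null 2, with a weight of 0.46, was the lone higher adenoma at 3 members and the lone lower one at 0.

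Genotypes were compared by a test on methylated and unmethylated counts over all 14983 sites with reads of both states (edgeR quasi-likelihood, Benjamini-Hochberg adjusted p under 0.05), fitted on 11 adenomas. The first question was which sites differ when Tet1 is absent. Methylation rose at 22 members and fell at 1 in Tet1 null against control adenomas, 1.79% of 1287, where 1.77% of all sites were called. The control level entered the choice of members, so nothing is read from this count, and differences from control are given below as values only. The median level of the 23 members was 36.2% in control and 75.4% in Tet1 null adenomas. Limma on log2 count ratios called 1 of the 23, or 0.0777% of members, against 1.14% of all sites. The count was 9 without control 3 (0.699% of members, against 0.844% of all sites) and 9 without Tet1 null 3 (0.699%, against 0.854%). It was 11 without control 2 (0.855%, against 0.972%) and 25 without control 1 (1.94%, against 1.21%).

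The largest rise was at position 72612909 on chromosome 8, from 14.4, 34.95 and 32.2% in control to 63.4, 74.6 and 64.0% in Tet1 null adenomas. The difference was 40.1 points, the groups did not overlap, and this was the member that limma also called. Position 58111839 on chromosome 5 rose by 39.2 points from 58.95, 6.87 and 7.10% to 74.7, 54.8 and 61.1%. Control 1 there lay above Tet1 null 2, so the groups overlapped. Position 20851201 on chromosome 12 rose from 34.5, 37.6 and 36.6% to 84.6, 78.3 and 63.2% (39.1 points), with groups far apart. The fall, at position 117095557 on chromosome 13, was from 4.65, 24.04 and 43.2% to 7.08, 7.22 and 1.5% (-18.7 points), with overlapping groups.

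All members together were higher in Tet1 null than in control adenomas by a median of 7.79 points, and 1061 of 1287 (82.4%) were higher, where all 16868 sites had a median of 0.05 points. The median was 4.82 points in the middle class (77.5% higher) and 2.17 points in the class below 5 points (69.1% higher). Tet1 null 1 did not share this, since its mean of 50.1% lay among the controls. Groups that did not overlap, with Tet1 null higher at 130 members and lower at 4, made up 10.4% of members and 10.8% of all sites. The share was 15.1% in the middle class and 17.3% in the class below 5 points.

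Neither heterozygous genotype had a called member against control. The question for Tdg heterozygous adenomas was what N151A on 1 Tdg allele changes. No member was called by edgeR (0% of all sites were) or by limma, and 72 had an unadjusted edgeR p under 0.05 (5.59%, against 2.98% of all sites). The smallest p was at position 107123195 on chromosome 12, at 55.0, 18.5 and 48.2% in control and 4.47, 24.9 and 11.2% in Tdg heterozygous adenomas. Next was position 69333494 on chromosome 11, at 38.9, 52.1 and 80.6% and 84.1, 80.5 and 89.6%. Control adenomas were themselves spread over more than 30 points at both sites. In double heterozygous adenomas edgeR again called 0 members (0% of all sites), with 95 at an unadjusted p under 0.05 (7.38%, against 3.70% of all sites), and limma 0. Position 139633884 on chromosome 4 was at 40.4, 52.7 and 30.3% in control and 73.6 and 85.6% in double heterozygous adenomas. Position 128856519 on chromosome 7 was at 23.1, 45.4 and 31.3% and at 71.3 and 76.0%. Adenoma 3, not in the fit, was at 74.4% (33 reads) and 51.5% (79 reads) at these sites.

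The mutant genotypes were set against each other, a difference of means that the choice of members had not used. Members were chosen for a wide spread inside genotypes. The dispersion in the edgeR fit, however, had a median of 0.109 at members and over all sites alike. This dispersion gave members no wider spread than other sites, so their edgeR calls may be too many. Tet1 null adenomas were higher than Tdg heterozygous adenomas at 28 members and lower at 0 (2.18%, where 1.78% of all sites were called), by a median of 35.6 points among the 28, and the groups did not overlap at 26 of these. Limma on log2 count ratios called 9, all among the 28 (0.699% of members, against 1.46% of all sites). Position 87614372 on chromosome 3 was at 71.4, 73.1 and 50.3% in Tet1 null and 17.4, 6.64 and 32.3% in Tdg heterozygous adenomas (edgeR adjusted p = 9.73e-05, and 1.6e-05 to 0.285 over the alternatives). Position 86717245 on chromosome 7 was at 88.04, 79.6 and 87.7% and at 43.8, 37.4 and 40.04% (edgeR adjusted p = 0.000295, and 5.54e-05 to 0.176 over the alternatives), with groups far apart. At position 58111839 on chromosome 5 the difference was 47.8 points (edgeR adjusted p = 2.11e-05), and limma did not call it. The count was 18 without Tet1 null 3 (1.4% of members, against 1.1% of all sites) and 28 without control 1 (2.18%, against 1.73%).

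Against double heterozygous adenomas, Tet1 null adenomas were higher at 8 members and lower at 0 (0.622%, where 0.647% of all sites were called). Position 20851201 on chromosome 12 was at 30.6 and 13.4% in double heterozygous adenomas 1 and 2 (53.4 points lower than in Tet1 null, edgeR adjusted p = 0.000151), but at 77.3% in adenoma 3, on 33 reads. Position 58111839 on chromosome 5 was at 16.4 and 4.95% (edgeR adjusted p = 5.75e-05). Position 94520816 on chromosome 8 was at 45.8 and 20.5%, against 83.2, 67.0 and 79.8% in Tet1 null adenomas (edgeR adjusted p = 0.0138), and adenoma 3 was at 61.7% there. Limma on log2 count ratios called 0 of the 8 (0.243% of all sites), with 44 members at an unadjusted limma p under 0.05 (3.42%, against 6.06% of all sites). The count was 3 without Tet1 null 1 or 3 (0.233% of members each, against 0.466 and 0.363% of all sites). It was 15 with double heterozygous 3 in the fit (1.17%, against 0.893%). Without double heterozygous 1 or 2 that genotype has 1 adenoma in the fit, so no count is given. Between the heterozygous genotypes, edgeR called 0 members (0% of all sites) and limma 0, with 62 at an unadjusted edgeR p under 0.05 (4.82%, against 2.65% of all sites). Positions 59507578 and 45764890 on chromosome 19 had the smallest p (edgeR adjusted p = 0.711 and 0.904). In the edgeR fit the share of members called was thus close to that of all sites in every comparison of genotypes, and with limma it was lower wherever limma called any site.

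Adenoma values that did not overlap between genotypes gave the same picture in most comparisons. Tdg heterozygous and control adenomas did not overlap at 7.69% of members (6.9% of all sites), and Tet1 null and Tdg heterozygous adenomas at 7.85% (9.01%). Tet1 null and double heterozygous adenomas did not overlap at 9.79% (12%), and double heterozygous and Tdg heterozygous adenomas at 9.4% (10%). Only 2 double heterozygous adenomas entered, and fewer values make overlap less likely. Double heterozygous 1 and 2 did not overlap with the controls at 17.7% of members, where the share was 13.4% of all sites. It was 29.1% in the middle class and 44.3% in the class below 5 points. In every comparison of genotypes, members had a lower share than either of these classes. The control level and the spread inside genotypes chose the classes, and a wide spread makes overlap more likely, so no test is given. The median difference over members was 2.62 points for Tdg heterozygous and 7.38 points for double heterozygous against control adenomas.

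Sex, depth and cutting of the standards were set beside the shared component. By reads on the Y chromosome, Tet1 null 2 and double heterozygous 1 were male and Tdg heterozygous 3 female, while Tet1 null 1, Tdg heterozygous 2 and double heterozygous 2, at the other end, were male. With sex beside genotype in the edgeR fit, 0 members were called (0.0133% of all sites were), and 93 had an unadjusted p under 0.05 (7.23%, against 2.49% of all sites). Sex differences inside genotypes are part of the spread that chose the members, so nothing is read from these shares. Tet1 null 2, Tdg heterozygous 3 and double heterozygous 1 had 18527831, 15404336 and 17146721 reads. Tet1 null 1, Tdg heterozygous 2 and double heterozygous 2 had 16812476, 18865833 and 17729712. The lower of the spiked standards read 0.827, 0.133 and 1.66% in the former and 1.29, 0.12 and 0.833% in the latter. The higher one read 98.7 to 99.2% in all 12. Tet1 null 3 was also high in mean level, with a weight of 0.03 on the component. It was female, had 8213211 reads and read 0.147% at the lower standard. The part of sex, depth or the standards in the shared component was not tested.

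Position in the genome was the last property that the choice did not use. Members were found on all 19 autosomes, and their share of intermediate sites ran from 32.5% on chromosome 19 (26 of 80) to 51.3% on chromosome 10 (77 of 150), with 51.1% on chromosome 18 (48 of 94). Most members, in count, lay on chromosome 11 (114 of 323). The fullest window of 1 Mb was at 124000001 to 125000000 on chromosome 8, with 11 members among 20 intermediate sites, and the adjoining window held 8 among 15. Local density of CCCGGG sites differed little, with 1 neighbour within 500 bp at 1151 of 2825 intermediate sites that were members (40.7%), 2 neighbours at 110 of 279 (39.4%) and 3 or more at 18 of 38 (47.4%). The most even intermediate site, position 174125553 on chromosome 2, lay at 33.4 to 36.8% in all 11 adenomas, with an SD of 0.844 points. Double heterozygous 3, not used in the choice, was at 44.7% there on 148 reads, above adenomas 1 and 2 at 35.8 and 36.8%. The next most even site, position 129670045 on chromosome 4, had an SD of 1.15 points. Double heterozygous 3 was at 71.3% there on 59 reads, below adenomas 1 and 2 at 82.7 and 86.0%.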

How the data were processed

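DNA of 12 adenomas was spiked with standards and cut with SmaI, which cuts unmethylated CCCGGG, then XmaI, which cuts the rest, per the labels' protocols. The submitters' processing notes name Trim Galore, Bowtie2 and mm9, with versions not given in the sources at hand. A rat build named in the protocol text conflicts with mm9 in the file headers. Per the file headers, each site has counts of methylated and unmethylated reads as deposited. It also has a raw percent level and one that the authors adjusted on the standards, per the labels. Depth ranged from 2349576 to 18865833 reads, and no molecular identifiers are named, so counting errors cover reads only.

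The members, lists and comparison classes were chosen with earlier results of these data known. Members were taken from adjusted levels. Each adenoma was counted as its own sample, as labelled. Read counts of each pair of adenomas of a genotype differed at 35.1 to 76.9% of the 3162 intermediate sites (chi-square test, p under 0.05). That test takes reads as independent, which copied reads are not, so it cannot show that the samples are separate. Genotypes were compared with edgeR 4.0.16 in R 4.3.3 (quasi-likelihood test, 1 depth coefficient per adenoma, dispersion without a trend, common dispersion 0.109, two-sided, Benjamini-Hochberg over sites), on 11 adenomas in 1 fit with no covariate; 1885 sites with reads of 1 state were left out. The code was tested on simulated data. Alternatives were limma 3.58.1 on log2 count ratios (2 reads added) and on the logit of the adjusted level (1 point added), all 12 adenomas, a replicate block, sex, depth minimums, and leaving out each adenoma.

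Named sites were the 10 members with the largest SD, the 3 with the widest control range, up to 3 called members per direction and comparison with the largest difference (otherwise the 2 smallest p), 2 runs, the sites nearest each threshold, the 3 farthest in double heterozygous 3 and the 2 most even sites. The gene table at hand is of GRCm38.p6, and no coordinates were converted. Figures were drawn with matplotlib 3.10.9.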

Additional observations from a re-analysis of the deposited data

Results flagged for a closer look

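Differences of Tet1 null adenomas from both heterozygous genotypes passed a test of the difference itself. Tet1 null and Tdg heterozygous adenomas differed at 28 members, and Tet1 null and double heterozygous adenomas at 8 (edgeR adjusted p under 0.05). At all of these the Tet1 null adenomas were higher. The shares of members, 2.18 and 0.622%, were near those of all sites, 1.78 and 0.647%. Limma on log2 count ratios called 9 and 0 of them, and limma on the logit of the level 0 and 0.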

How the results depend on the processing

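The number of members was 754 at an SD threshold of 12 points, 720 at a depth minimum of 300 reads, 519 with 100 or more reads and the SD over all 12 adenomas, and 1141 to 1596 when 1 adenoma was left out. With the raw level it was 1304, of which 1243 were members.

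Members called in Tet1 null against control adenomas numbered 1 with limma on log2 count ratios (1.14% of all sites were called) and 0 with limma on the logit (0.545%). They numbered 13 with sex as a covariate (1.01% of members, against 1.23% of all sites). At a depth minimum of 300 reads they numbered 14 of 720 members (1.94%, against 1.84% of all sites). Against Tdg heterozygous adenomas they numbered 9 and 0 with limma on log2 ratios and on the logit (1.46 and 0.445% of all sites). At 300 reads they numbered 18 (2.5% of members, against 1.98% of all sites). Against double heterozygous adenomas they numbered 15 with 12 adenomas (1.17% of members, against 0.893% of all sites) and 0 with either limma fit (0.243 and 0.285% of all sites). At 300 reads they numbered 5 (0.694% of members, against 0.726% of all sites). With replicate number as a block the counts were 10, 16 and 2 (0.777, 1.24 and 0.155% of members, against 0.994, 1.25 and 0.294% of all sites). Same-numbered adenomas correlated at -0.45 to 0.23 over members, so the numbers were not taken as pairs. Without 1 adenoma the counts ranged from 9 to 38, 18 to 43 and 0 to 13, and for double heterozygous against Tdg heterozygous adenomas from 0 to 1; both heterozygous genotypes stayed at 0 against control. Without double heterozygous 1 or 2 that genotype has 1 adenoma in the fit, assumed to vary like the others. The cause of these shifts was not tested, except that fewer sites and adenomas enter some fits. Of the 10 tests of a called site that is named, 3 also passed with limma on log2 ratios and 0 with limma on the logit; over 176 alternatives 32 lost the call and 0 changed sign.

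The first component held 35.1 to 45.7% without 1 adenoma. Neighbours within 100 bp correlated above 0 in 66.7% of only 3 pairs. Depth limits double heterozygous 3, whose counting SD was 4.15 points.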
